A study of Mus musculus with 32 samples.

Results

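Total RNA polymerase II (RNAP) was mapped by chromatin immunoprecipitation and sequencing (ChIP-seq) in mouse embryonic stem (ES) cells of line J1 lacking Taf5l, lacking Taf6l, or wild type. The members described here are the peaks of the 3 RNAP lists on chromosomes 1 to 19, 73354 of the 371463 peaks that the 26 lists of the series hold on these chromosomes. Each RNAP peak was placed by the other lists of its own genotype. A peak overlapping an H3K4me3 peak by at least 1 bp was called a promoter peak. A peak overlapping an Oct4 peak and no H3K4me3 peak was called an Oct4 peak, and every other one was placed elsewhere.

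RNA polymerase II transcribes protein-coding genes. It is recruited to promoters with the general transcription factors, often pauses shortly after the start site, and then moves through the gene body. Serine 5 of its C-terminal repeats is phosphorylated mainly near the start (RNAP-ser5) and serine 2 mainly during elongation (RNAP-ser2), while the total antibody was used here without regard to that state. H3K4me3 is a histone mark of active promoters, and H3K9ac is an acetylation found at many of them. Oct4 is a transcription factor that keeps ES cells pluripotent and binds many enhancers. TAF5L and TAF6L are subunits of SAGA, a coactivator complex that carries a histone H3 acetyltransferase.

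The groups were Taf5l-KO, Taf6l-KO and wild-type J1 cells, all grown in medium with serum and LIF and crosslinked with formaldehyde, with 1 RNAP library each. The labels give the knockouts only as "Taf5l KO" and "Taf6l KO". Each knockout library was called against 1 named knockout input, and how many lines stand behind a knockout is not given in the sources used here. No ES cell or targeted gene could be checked by name, since no annotation of the build of the files, mm9, was used here. Oct4 peaks were listed in each genotype, 2957 in Taf5l-KO, 2008 in Taf6l-KO and 2502 in wild-type cells.

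Depth differed between the 3 RNAP libraries. They held 15865460 unique tags in Taf5l-KO, 7236644 in Taf6l-KO and 5174150 in wild-type cells. Duplicates made up 53.2% of the tags in Taf5l-KO, 75.1% in Taf6l-KO and 80.1% in wild-type cells. In the authors' calls the larger of ChIP and input was scaled to the smaller. The level scaled to was 6245652 tags in Taf5l-KO and 5923469 in Taf6l-KO, both set by the input. In wild-type cells it was 5174150, set by the ChIP library. These levels do not give the depth of the ChIP libraries. With 1 library per genotype no test between genotypes was possible. All intervals given are 95% intervals that cover counting error alone, and peaks that neighbour each other are not independent.

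In the whole lists, RNAP peaks away from H3K4me3 and Oct4 were fewer in both knockouts. Elsewhere peaks numbered 5339 in Taf5l-KO cells and 8542 in Taf6l-KO, against 12379 in wild-type cells, ratios to wild type of 0.431 (0.418 to 0.445) and 0.690 (0.671 to 0.709). Promoter peaks numbered 13972 in Taf5l-KO cells and 16775 in Taf6l-KO, against 15343 in wild-type cells, ratios of 0.911 (0.890 to 0.932) and 1.09 (1.07 to 1.12). With the 19758 strongest peaks by −log10 q taken from each list, a setting chosen after seeing the data, the elsewhere ratios were 0.835 in Taf5l-KO cells and 0.653 in Taf6l-KO. That number is the whole Taf5l-KO list, down to a −log10 q of 1.01, while Taf6l-KO was cut at 2.04 and wild type at 2.24. The promoter ratios were then 1.06 in Taf5l-KO cells, turned in direction, and 1.17 in Taf6l-KO. With equal totals, fewer elsewhere peaks leave more promoter peaks, so this turn is not a separate result. In the whole lists promoter peaks made up 70.7% of the Taf5l-KO list and 65.6% of the Taf6l-KO list, against 54.8% of the wild-type list. A single wild-type list served both comparisons, and it was also called from the fewest tags. The part of depth and of duplicates in these ratios cannot be told apart from that of genotype.

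**Figure D1:**
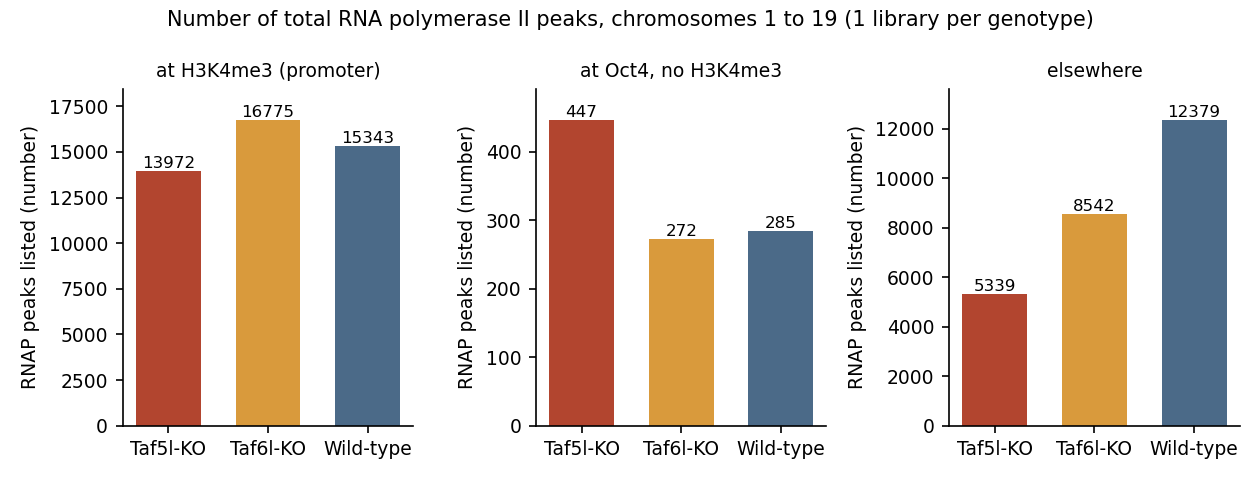
Number of total RNA polymerase II peaks on chromosomes 1 to 19 by place, in Taf5l-KO, Taf6l-KO and wild-type ES cells, with a vertical scale of its own in each panel. Bars are counts from 1 library each. The elsewhere bars are lower in both knockouts (5339 and 8542, against 12379 in wild-type cells), while the promoter bars lie between 13972 and 16775.

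Oct4 peaks were a small class in every list, with 447 RNAP peaks in Taf5l-KO cells and 272 in Taf6l-KO, against 285 in wild-type cells. The Taf5l-KO ratio of 1.57 (1.35 to 1.83) came with the longest Oct4 list, and with the wild-type H3K4me3 and Oct4 lists used for all genotypes it was 1.18. At equal list length, with the Taf5l-KO list left whole and the wild-type list cut, it was 1.99. The Taf6l-KO ratio was 0.954 (0.805 to 1.13), an interval that includes 1. A further 311 promoter peaks in Taf5l-KO cells and 253 in Taf6l-KO also overlapped Oct4, against 285 in wild-type cells.

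Seen from the sites, RNAP was listed at a larger share of Oct4 peaks in both knockouts, above all where Oct4 lay at a promoter. At Oct4 peaks without H3K4me3 the share with RNAP was 22.5% (20.9 to 24.1) in Taf5l-KO cells and 21.3% (19.5 to 23.3) in Taf6l-KO, against 18.9% (17.3 to 20.6) in wild-type cells, and the intervals of Taf6l-KO and wild-type cells overlap. Where Oct4 and H3K4me3 coincided, an RNAP peak was listed at 76.8% (71.0 to 82.0) of Oct4 peaks in Taf5l-KO cells and 77.5% (71.2 to 83.0) in Taf6l-KO, against 58.2% (52.7 to 63.6) in wild-type cells. In number these were 189 of 246 in Taf5l-KO cells and 162 of 209 in Taf6l-KO, against 192 of 330 in wild-type cells. The larger shares there thus came with fewer listed sites, and the number of sites with RNAP was not larger in either knockout. Of all H3K4me3 peaks, 44.4% carried RNAP in Taf5l-KO cells and 58.2% in Taf6l-KO, against 47.9% in wild-type cells. The H3K4me3 peaks with RNAP were the wide ones in each genotype, with medians of 1423 bp in Taf5l-KO, 1190 bp in Taf6l-KO and 1255 bp in wild-type cells. Those without RNAP had medians of 489 bp in Taf5l-KO, 436 bp in Taf6l-KO and 534 bp in wild-type cells.

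Promoter RNAP lay largely inside the H3K4me3 peaks. Of the base pairs in promoter RNAP peaks, 82.6% in Taf5l-KO cells and 86.0% in Taf6l-KO were inside H3K4me3 peaks, against 79.0% in wild-type cells. Promoter peaks wholly inside an H3K4me3 peak made up 73.7% (72.9 to 74.4) in Taf5l-KO cells and 62.8% (62.1 to 63.6) in Taf6l-KO, against 58.1% (57.3 to 58.9) in wild-type cells. Those with at least 1000 bp outside the mark were 3.36% in Taf5l-KO cells and 2.06% in Taf6l-KO, against 3.21% in wild-type cells.

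Widths were larger in Taf5l-KO than in wild-type cells for promoter and elsewhere peaks. Over all peaks the median width was 572 bp in Taf5l-KO cells and 526 bp in Taf6l-KO, against 477 bp in wild-type cells. At promoters it was 626 bp in Taf5l-KO cells and 620 bp in Taf6l-KO, against 582 bp in wild-type cells. Elsewhere it was 455 bp in Taf5l-KO cells and 372 bp in Taf6l-KO, against 363 bp in wild-type cells. At Oct4 peaks the order was turned round, with 438 bp in Taf5l-KO cells and 454.5 bp in Taf6l-KO, against 478 bp in wild-type cells. The ranges between the lower and upper quartile overlapped widely between genotypes in each class. Promoter peaks that also overlapped Oct4 were wider still, with medians of 1245 bp in Taf5l-KO cells and 1111 bp in Taf6l-KO, against 1100 bp in wild-type cells.

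**Figure D2:**
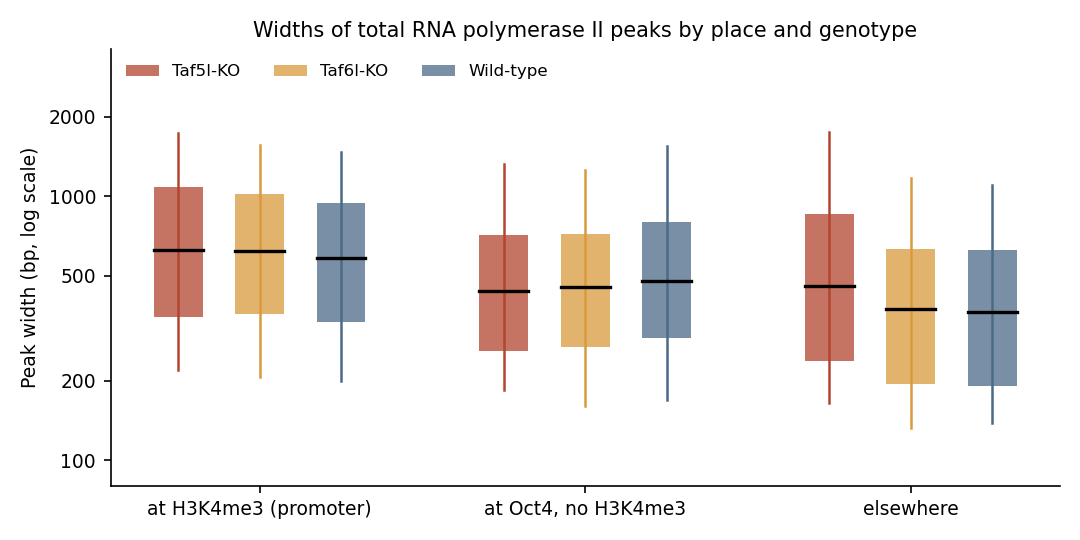
Width of total RNA polymerase II peaks (bp, log scale) by place in Taf5l-KO, Taf6l-KO and wild-type cells. Black lines are medians, boxes run from the lower to the upper quartile and thin lines from the 10th to the 90th percentile over peaks of 1 library each. Elsewhere the Taf5l-KO median (455 bp) lies above those of Taf6l-KO (372 bp) and wild-type cells (363 bp).

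Long peaks were a larger share of the Taf5l-KO list. Peaks of at least 2000 bp numbered 1491 (7.55%) in Taf5l-KO cells and 1244 (4.86%) in Taf6l-KO, against 1182 (4.22%) in wild-type cells. Among elsewhere peaks they were 438 (8.20%) in Taf5l-KO cells and 350 (4.10%) in Taf6l-KO, against 418 (3.38%) in wild-type cells. The number of long elsewhere peaks was therefore close in Taf5l-KO cells and wild-type cells, and the difference in the class lay among the shorter ones. In base pairs, elsewhere peaks covered 4.39 Mb in Taf5l-KO cells and 5.05 Mb in Taf6l-KO, against 6.95 Mb in wild-type cells. Promoter peaks covered 13.0 Mb in Taf5l-KO cells and 13.9 Mb in Taf6l-KO, against 12.5 Mb in wild-type cells.

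The widest peak of each list, singled out after its value was seen, was a promoter peak. In Taf5l-KO it spanned 31679 bp on chromosome 11 from 51389211 to 51420889, over 6 Taf6l-KO and 4 wild-type peaks. The widest Taf6l-KO peak, of 25416 bp, lay at the same place, from 51395546 to 51420961. The widest wild-type peak, of 22895 bp, lay on chromosome 1 from 88234348 to 88257242.

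Peaks that overlapped one to one in both lists were compared in width directly, so that splitting and joining played no part. Promoter peaks were slightly wider in both knockouts. The median log2 ratio of width, knockout to wild type, was 0.07 (0.06 to 0.09) over 10849 pairs in Taf5l-KO, with medians of 685 bp in Taf5l-KO cells and 650 bp in wild-type cells. In Taf6l-KO it was 0.08 (0.07 to 0.10) over 12696 pairs, with medians of 694 bp in Taf6l-KO and 613 bp in wild-type cells. Of these pairs 54.0% in Taf5l-KO cells and 56.5% in Taf6l-KO were wider in the knockout, so single promoters went either way. When a −log10 q of 5 or more was required of both peaks, the Taf5l-KO promoter ratio was 0.29 and the Taf6l-KO ratio 0.05.

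Elsewhere the knockouts differed from wild-type cells in opposite directions. The median log2 ratio was 0.08 (0.02 to 0.14) over 1944 pairs in Taf5l-KO, with medians of 575 bp in Taf5l-KO cells and 539 bp in wild-type cells. It was −0.12 (−0.15 to −0.08) over 2590 pairs in Taf6l-KO, with medians of 487 bp in Taf6l-KO and 509.5 bp in wild-type cells. The Taf5l-KO direction did not hold at a −log10 q of 5 or more, where the ratio was −0.02 over 102 pairs. At Oct4 peaks the ratios were 0.04 (−0.07 to 0.23) over 189 pairs in Taf5l-KO cells and −0.11 (−0.22 to 0.04) over 180 pairs in Taf6l-KO, and both intervals include 0. At a −log10 q of 5 or more few pairs were left. The ratio was 0.28 (−0.34 to 0.46) over 28 pairs in Taf5l-KO cells and −0.23 (−0.51 to −0.02) over 29 pairs in Taf6l-KO.

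**Figure D3:**
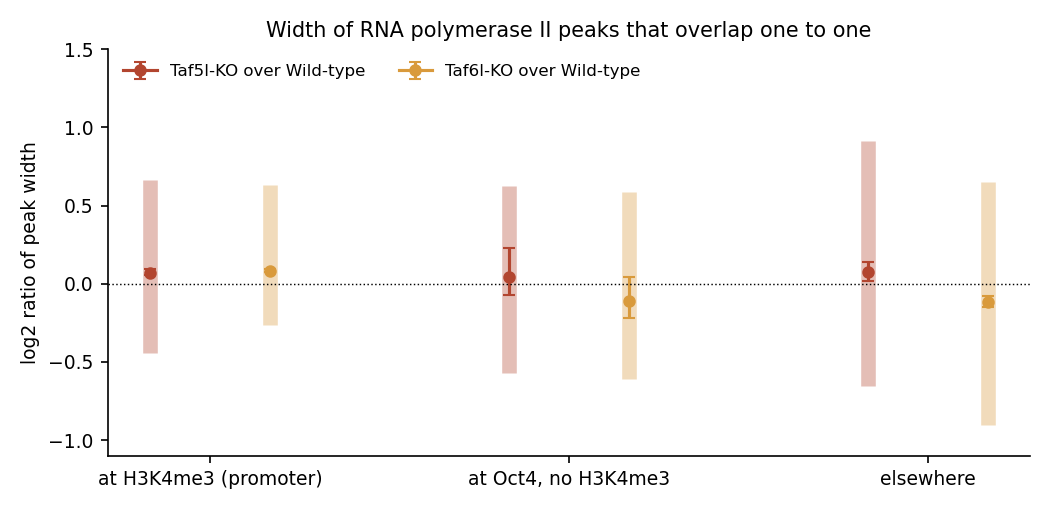
Log2 ratio of peak width, knockout to wild type, for RNA polymerase II peaks that overlap one to one, by place and knockout. Points are medians with 95% order-statistic intervals (counting error only), pale bars run from the lower to the upper quartile, and the dotted line marks equal width. The quartiles span 0 in each class, and the elsewhere medians lie on opposite sides of it, at 0.08 for Taf5l-KO and −0.12 for Taf6l-KO.

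Wild-type peaks were also joined or split. In Taf5l-KO 414 promoter peaks and 255 elsewhere peaks each overlapped more than 1 wild-type peak, and in Taf6l-KO 283 and 182 did. The reverse, a wild-type peak overlapped by several knockout peaks, was seen for 165 promoter and 151 elsewhere peaks in Taf5l-KO cells and for 273 and 225 in Taf6l-KO. Joining was thus the more frequent event in Taf5l-KO, and in Taf6l-KO splitting was the more frequent one elsewhere.

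The share of wild-type RNAP peaks found again was far lower elsewhere than at promoters and Oct4 peaks in both knockouts. Over all wild-type peaks, 52.5% were overlapped by a Taf5l-KO RNAP peak and 60.1% by a Taf6l-KO RNAP peak, and these peaks are called kept. At promoters the kept share was 76.5% (75.8 to 77.1) in Taf5l-KO cells and 87.8% (87.3 to 88.3) in Taf6l-KO of 15343. At Oct4 peaks it was 74.4% (68.9 to 79.4) in Taf5l-KO cells and 69.8% (64.1 to 75.1) in Taf6l-KO of 285. Elsewhere it was 22.3% (21.6 to 23.1) in Taf5l-KO cells and 25.6% (24.8 to 26.4) in Taf6l-KO of 12379. Where Oct4 lay at a promoter, 272 (95.4%) were kept in Taf5l-KO cells and 270 (94.7%) in Taf6l-KO of 285. On 19 of 19 chromosomes the promoter share was above the elsewhere share in both knockouts.

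The elsewhere share moved with the way a peak was counted. With a −log10 q of 5 or more asked of the wild-type list alone, 40.4% of elsewhere peaks were kept in Taf5l-KO cells and 54.1% in Taf6l-KO. With 50% of the wild-type peak to be covered, 15.8% were kept in Taf5l-KO cells and 16.2% in Taf6l-KO. The promoter share stayed above the elsewhere share in each of the 4 alternatives tried in both knockouts.

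More wild-type promoter peaks were kept in Taf6l-KO alone than in Taf5l-KO alone. Of the wild-type promoter peaks, 11322 (73.8%) were kept in both, 409 (2.67%) in Taf5l-KO only, 2151 (14.0%) in Taf6l-KO only and 1461 (9.52%) in neither. Of the Oct4 peaks, 175 were kept in both, 37 in Taf5l-KO only, 24 in Taf6l-KO only and 49 in neither. Of the elsewhere peaks, 1956 (15.8%) were kept in both and 8402 (67.9%) in neither. Elsewhere peaks made up 84.8% of the 9912 wild-type peaks found in neither knockout. A near miss was not the rule for them, since a knockout peak lay within 1000 bp of 10.4% of the missing elsewhere peaks in Taf5l-KO cells and of 14.7% in Taf6l-KO.

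The places differed also among wild-type peaks of like strength. The lists give for each peak the authors' fold enrichment, a ratio of its pileup to the local background from the input, and this value is used here only within a list. Among wild-type peaks with a fold enrichment of 4 to under 5, the kept share at promoters was 67.9% in Taf5l-KO cells and 83.3% in Taf6l-KO. At Oct4 peaks of that strength it was 76.9% in Taf5l-KO cells and 71.9% in Taf6l-KO, and elsewhere 30.1% in Taf5l-KO cells and 32.2% in Taf6l-KO. At 7 or more it came to 96.9% in Taf5l-KO cells and 99.5% in Taf6l-KO at promoters, but 53.5% in Taf5l-KO cells and 67.5% in Taf6l-KO elsewhere. With width held to 300 to 599 bp as well as fold enrichment to 4 to under 5, 65.2% of 1374 promoter peaks, 70.7% of 41 Oct4 peaks and 27.0% of 836 elsewhere peaks were kept in Taf5l-KO. In Taf6l-KO these shares were 86.5%, 65.9% and 30.4%.

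**Figure D4:**
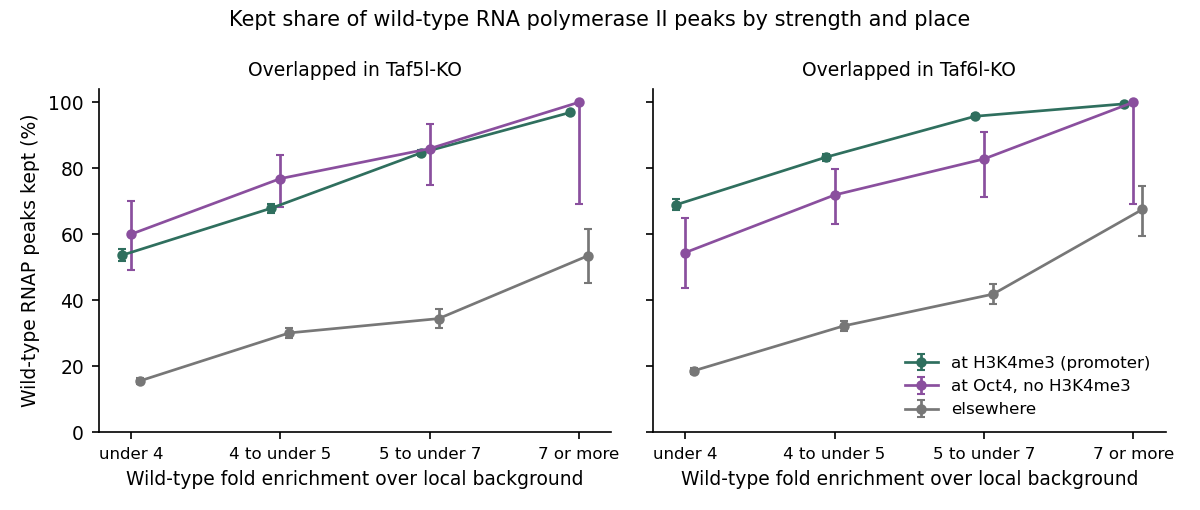
Share of wild-type RNA polymerase II peaks overlapped by a peak of Taf5l-KO (left) or Taf6l-KO (right), in percent, by the authors' wild-type fold enrichment and by place. Bars are exact 95% intervals (counting error only). In each band the elsewhere peaks lie below the promoter and Oct4 peaks, from 15.6% (Taf5l-KO) and 18.7% (Taf6l-KO) under 4 to 53.5% and 67.5% at 7 or more.

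Wide elsewhere peaks were kept more often than narrow ones. Among those under 300 bp, 12.7% were kept in Taf5l-KO cells and 15.8% in Taf6l-KO of 5266. Among those of 1200 bp or more, 67.2% (64.3 to 70.0) were kept in Taf5l-KO cells and 71.9% (69.1 to 74.6) in Taf6l-KO of 1058. At promoters the matching shares were 60.0% in Taf5l-KO cells and 72.7% in Taf6l-KO under 300 bp, and 95.2% and 97.5% at 1200 bp or more. Elsewhere peaks far from any H3K4me3 peak were kept least. Of the 471 wild-type elsewhere peaks 100000 bp or more away, 26 (5.52%) were kept in Taf5l-KO cells and 66 (14.0%) in Taf6l-KO. Such remote peaks made up 1.12% of the elsewhere peaks in Taf5l-KO cells and 2.25% in Taf6l-KO, against 3.80% in wild-type cells. They were also short, with a median of 228 bp in wild-type cells.

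Promoter polymerase was kept more often where wild-type cells carried H3K9ac than where they did not. In wild-type cells 3526 of the 15343 promoter RNAP peaks overlapped an H3K9ac peak. Of these 98.95% (98.6 to 99.3) were kept in Taf5l-KO cells and 99.1% (98.8 to 99.4) in Taf6l-KO. Of the 11817 without H3K9ac, 69.7% (68.9 to 70.6) were kept in Taf5l-KO cells and 84.4% (83.8 to 85.1) in Taf6l-KO. Of the 400 promoter RNAP peaks with Myc in wild-type cells, 396 were kept in Taf5l-KO cells (interval of the share 97.5% to 99.7%) and 394 in Taf6l-KO (96.8% to 99.4%). Of all promoter RNAP peaks, 76.5% were kept in Taf5l-KO cells and 87.8% in Taf6l-KO. The part of strength and width in the Myc shares was not tested. At the 3526 places with H3K9ac in wild-type cells, the acetylation itself was seldom listed in the knockouts. H3K9ac peaks were at 2.64% (2.13 to 3.22) of these places in Taf5l-KO cells and 20.7% (19.3 to 22.0) in Taf6l-KO. H3K4me3 was listed at 99.2% of them in Taf5l-KO cells and 99.5% in Taf6l-KO. The H3K9ac lists held 110 peaks in Taf5l-KO cells and 880 in Taf6l-KO, against 4024 in wild-type cells, while their unique tags were 1.32 (Taf5l-KO) and 1.07 (Taf6l-KO) times the wild type. In these calls the H3K9ac signal was scaled to the level of the smaller input. That level was 0.804 times the wild type in Taf5l-KO cells and 0.762 times in Taf6l-KO. The part of this scaling was not tested.

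The peaks with H3K9ac were also stronger and wider, with a median fold enrichment of 6.59 against 4.79 and a median width of 908.5 bp against 508 bp without it. Within bands of either measure their kept share was higher too. Under a fold enrichment of 4, 93.5% (88.7 to 96.7) with H3K9ac were kept in Taf5l-KO, against 51.3% (49.4 to 53.1) without it. In Taf6l-KO these shares were 94.1% (89.4 to 97.1) and 67.5% (65.7 to 69.2). Among promoter peaks under 300 bp, 92.8% (88.9 to 95.7) of 251 with H3K9ac were kept in Taf5l-KO, against 57.3% (55.5 to 59.1) of 3068 without it. In Taf6l-KO these were 94.0% (90.3 to 96.6) and 71.0% (69.3 to 72.6). At 7 or more the shares with and without H3K9ac came close, at 99.8% and 94.3% in Taf5l-KO cells and at 99.8% and 99.2% in Taf6l-KO. The part of other features of these promoters was not tested.

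**Figure D5:**
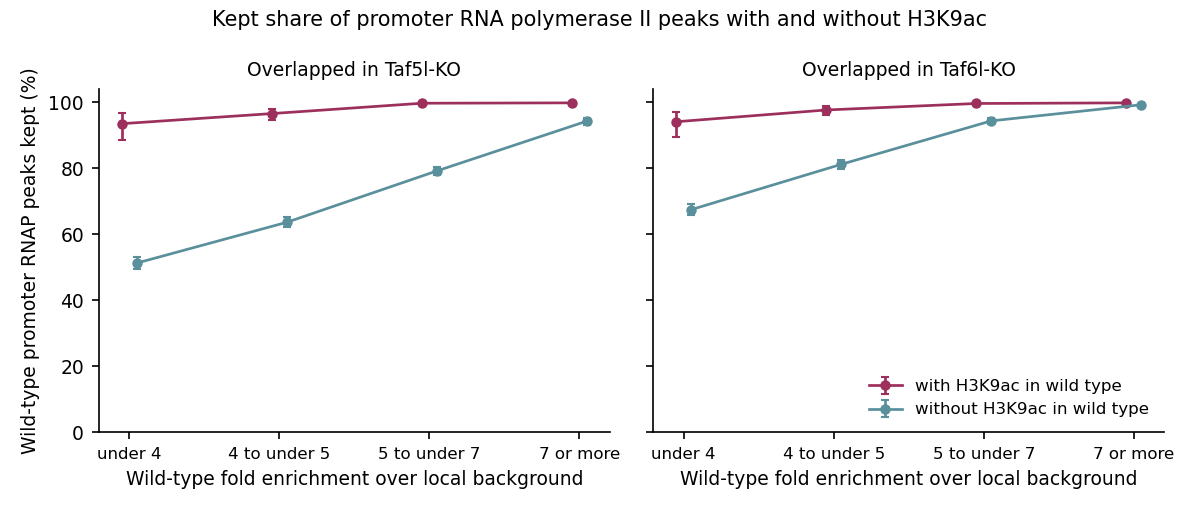
Share of wild-type promoter RNA polymerase II peaks overlapped by a peak of Taf5l-KO (left) or Taf6l-KO (right), in percent, by wild-type fold enrichment, for peaks with and without an H3K9ac peak in wild-type cells. Bars are exact 95% intervals (counting error only). Under 4, the peaks with H3K9ac stand at 93.5% and 94.1% and those without at 51.3% and 67.5%.

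Other features of kept and missing promoter peaks were set side by side. Regions of tagged TAF6L (TAF6L-FB, pulled down through a biotin tag) overlapped 5.83% (5.41 to 6.27) of the promoter peaks kept in Taf5l-KO cells and 0.526% (0.317 to 0.820) of the missing ones. For Taf6l-KO these shares were 5.08% (4.71 to 5.46) and 1.02% (0.61 to 1.58). Kept promoter peaks were also wider, with medians of 659 bp kept and 389 bp missing in Taf5l-KO, and 623 bp and 311.5 bp in Taf6l-KO. The part of width and strength in the TAF6L-FB shares was not tested. RNAP-ser5 in wild-type cells was found at 47.8% of the promoter peaks kept in Taf5l-KO cells and 34.4% of those missing, and at 47.3% and 25.4% for Taf6l-KO. By wild-type strength the gap differed. In Taf5l-KO, RNAP-ser5 was at 29.2% of the kept and 32.4% of the missing peaks with a fold enrichment of 4 to under 5, at 49.4% and 54.8% with 5 to under 7, and at 77.7% of the kept peaks and 65 of the 100 missing ones with 7 or more. In Taf6l-KO it was at 31.4% of the kept and 24.4% of the missing peaks with 4 to under 5, at 51.0% and 33.8% with 5 to under 7, and at 77.4% and 50.0% (8 of 16) with 7 or more. Under 4 the missing peaks had the larger share in both, 19.5% kept and 23.4% missing in Taf5l-KO, and 20.1% and 23.9% in Taf6l-KO. Most missing promoter peaks still carried H3K4me3 in the knockout, 86.0% (84.8 to 87.1) in Taf5l-KO cells and 69.6% (67.4 to 71.7) in Taf6l-KO, against 96.6% and 96.5% of the kept ones. Some also carried a phosphorylated form in the knockout. RNAP-ser2 was listed at 25.2% of the missing ones in Taf5l-KO cells and 33.8% in Taf6l-KO, against 69.8% and 82.5% of the kept ones. RNAP-ser5 was listed at 8.03% and 13.4% of the missing ones, against 60.7% and 50.4% of the kept ones.

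At Oct4 peaks, the total RNAP peak was missing both with and without a listed Oct4 peak. RNAP-ser2 of the knockout itself was listed at 16.4% of the missing and 45.3% of the kept ones in Taf5l-KO. In Taf6l-KO these shares were 6.98% and 47.7%. Of the 73 wild-type RNAP peaks at Oct4 missing from Taf5l-KO, 47 (64.4%; 52.3 to 75.3) still overlapped Oct4 in Taf5l-KO, against 160 (75.5%; 69.1 to 81.1) of the 212 kept. In Taf6l-KO 46 of 86 missing (53.5%; 42.4 to 64.3) and 118 of 199 kept (59.3%; 52.1 to 66.2) still overlapped Oct4. TAF6L-FB regions overlapped 24.5% (18.9 to 30.9) of the peaks kept in Taf5l-KO cells and 5.48% (1.51 to 13.4) of those missing, and 24.6% (18.8 to 31.2) and 8.14% (3.34 to 16.1) for Taf6l-KO. Here too the kept peaks were wider, with medians of 528 bp kept and 359 bp missing in Taf5l-KO, and 541 bp and 387.5 bp in Taf6l-KO. The part of width was not tested. TAF6L-FB was mapped in separate tagged lines, and the same set of regions was set against the RNAP list of each genotype. These regions overlapped 18.6% of the Oct4 RNAP peaks listed in Taf5l-KO, 20.2% in Taf6l-KO and 19.6% in wild-type cells. At promoters the same share was 5.50% in Taf5l-KO, 4.82% in Taf6l-KO and 4.58% in wild-type cells, and elsewhere it was 2.29% in Taf5l-KO, 1.48% in Taf6l-KO and 0.840% in wild-type cells.

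Elsewhere, the wild-type peaks found again were more often called with the phosphorylated forms. RNAP-ser5 peaks overlapped 68.0% (66.2 to 69.7) of the elsewhere peaks kept in Taf5l-KO cells and 38.2% (37.3 to 39.2) of those missing, in wild-type cells. For RNAP-ser2 these shares were 76.0% (74.3 to 77.6) and 42.8% (41.8 to 43.8). For Taf6l-KO they were 66.5% and 37.4% with RNAP-ser5, and 74.4% and 41.9% with RNAP-ser2. In the knockouts themselves, RNAP-ser2 was listed at 24.5% of the missing elsewhere peaks in Taf5l-KO cells and 21.8% in Taf6l-KO, against 72.9% and 65.8% of those kept. RNAP-ser5 was listed at 19.1% and 4.97% of the missing ones, against 70.9% and 20.4% of those kept. Kept elsewhere peaks were also wider, with medians of 617 bp kept and 316 bp missing in Taf5l-KO, and 575 bp and 313 bp in Taf6l-KO. The part of width in these shares was not tested.

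Within each genotype the phosphorylated forms were called at many RNAP peaks. At promoters RNAP-ser2 overlapped 62.0% of them in Taf5l-KO cells and 73.6% in Taf6l-KO, against 60.6% in wild-type cells. RNAP-ser5 overlapped 53.5% in Taf5l-KO cells and 42.2% in Taf6l-KO, against 44.6% in wild-type cells. Elsewhere RNAP-ser5 overlapped 60.1% in Taf5l-KO cells and 10.9% in Taf6l-KO, against 44.9% in wild-type cells. The RNAP-ser5 libraries held 8807133 unique tags in Taf5l-KO, 1702363 in Taf6l-KO and 3871824 in wild-type cells, in the same order as these shares elsewhere, and the part of depth was not tested. Myc, a transcription factor that drives growth, was listed at 0.136% of promoter RNAP peaks in Taf5l-KO cells and 0.0477% in Taf6l-KO, against 2.61% in wild-type cells. The whole Myc lists held 32 peaks in Taf5l-KO cells and 22 in Taf6l-KO, against 531 in wild-type cells. Their estimated fragment length was 51 bp in Taf5l-KO and 50 bp in Taf6l-KO, the tag size being 50 bp, against 95 bp in wild-type cells. The part of library quality was not tested.

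For the phosphorylated forms too, wild-type peaks were kept less often elsewhere than at promoters. Of the wild-type RNAP-ser2 peaks, 70.0% were kept at promoters, 50.0% at Oct4 and 24.3% elsewhere in Taf5l-KO, and 81.5%, 51.9% and 22.6% in Taf6l-KO. Of the wild-type RNAP-ser5 peaks, 61.8% were kept at promoters, 52.5% at Oct4 and 17.9% elsewhere in Taf5l-KO. In Taf6l-KO these were 59.2%, 26.3% and 5.75%, in the shallow RNAP-ser5 library named above. Each antibody was classed with the same H3K4me3 and Oct4 lists, so these shares are not independent of those of total RNAP.

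Knockout peaks outside the wild-type list were most frequent elsewhere. Of the Taf5l-KO RNAP peaks 27.8% and of the Taf6l-KO RNAP peaks 33.8% overlapped no wild-type RNAP peak. At promoters these were 2581 (18.5%) in Taf5l-KO cells and 3595 (21.4%) in Taf6l-KO. At Oct4 peaks they were 188 (42.1%) in Taf5l-KO cells and 128 (47.1%) in Taf6l-KO, and elsewhere 2730 (51.1%) and 4921 (57.6%). With a −log10 q of 5 or more in both lists, the promoter shares were 41.7% in Taf5l-KO cells and 39.2% in Taf6l-KO. In the whole lists, many of the elsewhere ones had a phosphorylated form in wild-type cells. There wild-type RNAP-ser2 was listed at 48.2% of those of Taf5l-KO and 38.9% of those of Taf6l-KO, and RNAP-ser5 at 37.5% and 31.4%. At promoters these shares were 14.1% and 12.8% with RNAP-ser2, and 7.48% and 7.18% with RNAP-ser5.

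The promoter peaks outside the wild-type list lay where wild-type cells already carried the promoter mark. An H3K4me3 peak was listed in wild-type cells at 91.9% of them for each knockout. They were short, with medians of 329 bp in Taf5l-KO cells and 327 bp in Taf6l-KO, against 717 bp for the shared promoter peaks of either list. The other knockout listed 73.7% (71.9 to 75.3) of those of Taf5l-KO and 53.8% (52.1 to 55.4) of those of Taf6l-KO. Elsewhere the other knockout listed 35.9% (34.1 to 37.8) of those of Taf5l-KO and 24.8% (23.6 to 26.0) of those of Taf6l-KO. Since both were set against 1 wild-type list, such sharing includes places that this list lacks by itself. Of all Taf5l-KO RNAP peaks 81.6% were in the Taf6l-KO list, and of all Taf6l-KO RNAP peaks 65.3% were in the Taf5l-KO list. At promoters these shares were 92.9% and 77.8%, and elsewhere 53.0% and 40.5%.

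Single regions are named by the authors' fold enrichment within their own list. The strongest wild-type promoter peak, on chromosome 3 from 96292266 to 96293194, had a wild-type value of 47.2 and was listed in both knockouts. It was 821 bp wide in Taf5l-KO cells and 828 bp in Taf6l-KO, against 929 bp in wild-type cells, and overlapped a TAF6L-FB region. Its H3K4me3 peak was listed in all 3 genotypes, and H3K9ac was listed in Taf6l-KO and wild-type cells. The next kept promoter peak, on chromosome 15 from 100325448 to 100325840, was 622 bp wide in Taf5l-KO cells and 1202 bp in Taf6l-KO, against 393 bp in wild-type cells. The one on chromosome 11 from 87275304 to 87276325 was 1059 bp wide in Taf5l-KO cells and 1090 bp in Taf6l-KO, against 1022 bp in wild-type cells. It carried Myc in wild-type cells alone.

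The promoter peaks missing from both knockouts were far weaker at the top. They were led by chromosome 12 from 40265550 to 40265760, with a wild-type fold enrichment of 8.04. The next were on chromosome 4 from 88451158 to 88452102, with 7.79, and on chromosome 6 from 70906353 to 70906533, with 7.70. H3K4me3 was listed at these 3 places in every genotype and H3K9ac in none. In Taf6l-KO, RNAP-ser2 was listed at those on chromosomes 12 and 4, and RNAP-ser5 at the one on chromosome 12. The one on chromosome 4 overlapped a TAF6L-FB region. At a wild-type fold enrichment of 10 or more, 615 of 617 promoter peaks were listed in both knockouts, and 400 of them in all 9 polymerase lists.

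The strongest kept Oct4 peaks lay where Oct4 was listed in wild-type cells only. They were on chromosome 19 from 18807168 to 18807467, with a wild-type fold enrichment of 39.5, and on chromosome 3 from 96177744 to 96178708, with 33.6, and from 96163274 to 96164239, with 27.3. RNAP-ser5 and RNAP-ser2 were listed at all 3 in every genotype. The pair on chromosome 3 carried H3K4me3 and H3K9ac peaks in Taf6l-KO and in neither Taf5l-KO nor wild-type cells. The Oct4 peaks missing from both knockouts were led by chromosome 7 from 46749934 to 46750224, with 6.62, where Oct4 itself was listed in Taf6l-KO and wild-type cells. The next, on chromosome 10 from 94683091 to 94683437, with 5.88, kept its Oct4 peak in all 3 genotypes.

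The strongest kept elsewhere peaks were narrow and carried every form of the polymerase. On chromosome 18 from 14806200 to 14806524 the peak was 309 bp wide in Taf5l-KO cells and 296 bp in Taf6l-KO, against 325 bp in wild-type cells. On chromosome 4 from 51825271 to 51825583 the widths were 302 bp in Taf5l-KO cells and 297 bp in Taf6l-KO, against 313 bp in wild-type cells. On chromosome 18 from 10150903 to 10151223 they were 299 bp in Taf5l-KO cells and 304 bp in Taf6l-KO, against 321 bp in wild-type cells. All 3 were in all 9 polymerase lists and had no H3K4me3 in any genotype. The first on chromosome 18 and the one on chromosome 4 overlapped an Oct4 peak in Taf5l-KO. Whether such narrow places are repeats or mapping artefacts could not be checked, since no mm9 annotation was used here. The strongest elsewhere peaks missing from both knockouts lay on chromosome 6 from 75181718 to 75181908, with a wild-type fold enrichment of 10.1, on chromosome 17 from 84714074 to 84714407, with 9.83, and on chromosome 5 from 58180750 to 58180993, with 9.37. RNAP-ser2 was listed at all 3 of them in Taf6l-KO, and RNAP-ser5 at the one on chromosome 17 in Taf5l-KO.

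Of the strongest knockout peaks outside the wild-type list, most were found in both knockouts. At promoters these were chromosome 2 from 158235470 to 158236192 in Taf5l-KO, with a fold enrichment of 9.96. In Taf6l-KO they were chromosome 5 from 72594481 to 72594748, with 12.3, and chromosome 17 from 8476209 to 8476919, with 12.1. H3K4me3 was listed at all 3 in every genotype. The strongest in Taf5l-KO, on chromosome 8 from 126530292 to 126531648, with 10.5, had H3K4me3 in Taf5l-KO alone and was not in the Taf6l-KO list. Elsewhere, the leading ones were chromosome 3 from 95074761 to 95075231 in Taf5l-KO, with 9.42, and chromosome 11 from 60553655 to 60554079 in Taf6l-KO, with 9.03, each also in the other knockout list. At the first of these RNAP-ser5 and RNAP-ser2 were listed in wild-type cells, where total RNAP was not. At Oct4 the leading ones were chromosome 15 from 73506737 to 73507536 in Taf5l-KO, with 9.33, and chromosome 1 from 137573526 to 137573732 in Taf6l-KO, with 7.10. Each had its Oct4 peak in that knockout alone. By contrast, the next in Taf6l-KO, on chromosome 10 from 12328649 to 12328808, with 7.08, had Oct4 in all 3 genotypes. Of all RNAP peaks at Oct4 outside the wild-type list, 51.1% (43.7 to 58.4) in Taf5l-KO cells and 59.4% (50.3 to 68.0) in Taf6l-KO overlapped an Oct4 peak of wild-type cells.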

How the data were processed

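ChIP-seq peak lists were used, 1 per library. The submitters' processing notes name Bowtie2 2.3.2, deepTools 2.5.3 and the mouse build mm9. The peak caller was MACS2 2.1.1.20160309, run against an input of the same genotype. It kept no more than 1 tag at a position, with a cutoff of 0.05 on q and, for the polymerase and histone lists, broad linking at 0.1, per the file headers. The larger of ChIP and input was scaled down to the smaller, per the file headers, so depth and duplicates affect how many weak peaks are called. For each peak the deposited lists give a pileup, a signal that depends on depth. They also give a fold enrichment (a ratio to local background) and −log10 p and −log10 q values, as deposited.

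Chromosomes 1 to 19 were kept, which set aside 893 RNAP peaks of Taf5l-KO, 1280 of Taf6l-KO and 1584 of wild-type cells. Overlap means at least 1 bp. TAF6L-FB regions joined both tagged lines and left out BirA regions, which left 1621. Shares carry exact (Clopper-Pearson) intervals, ratios of counts the interval of the share they make, and median log2 width ratios order-statistic intervals. No test was made, since there was 1 library per genotype. Named regions are, per place, the 3 strongest wild-type peaks kept in both knockouts, the 3 strongest in neither, and the 2 strongest of each knockout outside the wild-type list. The text gives most of them. Members, lists and rules were chosen with earlier results of these data known. Alternatives were a stricter threshold, 50% coverage, equal list length, merging within 1000 bp and wild-type lists for the place. Equal list length left the Taf5l-KO list whole and cut the other lists. Overlap and width steps were tested on simulated data. Computation used Python 3.11.15, NumPy 2.4.6, pandas 2.3.3 and SciPy 1.17.1. No gene was assigned to a peak, since no genome or annotation of mm9 was used here.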

Additional observations from a re-analysis of the deposited data

Results flagged for a closer look

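In the whole lists, the number of promoter RNAP peaks differed from wild type in opposite directions in the knockouts, with a ratio to wild type of 0.911 in Taf5l-KO and 1.09 in Taf6l-KO. At equal list length, a setting chosen after seeing the data, the ratios were 1.06 in Taf5l-KO and 1.17 in Taf6l-KO, and the directions were no longer opposite. With equal totals, fewer elsewhere peaks leave more promoter peaks, so these directions are not a separate result. The width of elsewhere peaks that overlap one to one also differed from wild type in opposite directions, with a median log2 ratio of 0.076 in Taf5l-KO and −0.12 in Taf6l-KO. The Taf5l-KO value was −0.018 at a −log10 q of 5 or more. Each value rests on 1 library per genotype and on the same wild-type list, and the difference between the knockouts was not tested.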

How the results depend on the processing

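Of 72 values under another setting, 22 stayed within the counting interval of the value reported, 48 moved beyond it and 2 changed direction. Values follow in the order promoter, Oct4, elsewhere. Kept shares at a −log10 q of 5 or more in both lists were 56.7%, 54.7% and 18.0% in Taf5l-KO and, for Oct4 and elsewhere, 58.5% and 20.8% in Taf6l-KO. With 50% of the wild-type peak covered they were 66.0%, 58.6% and 15.8% in Taf5l-KO and 78.1%, 51.9% and 16.2% in Taf6l-KO. With 19758 peaks from each list they were 80.8%, 79.6% and 30.1% in Taf5l-KO and, for promoter and elsewhere, 88.8% and 24.1% in Taf6l-KO. With the stricter threshold in the wild-type list alone, chosen after seeing the data, they were 92.1%, 88.7% and 40.4% in Taf5l-KO and 98.5%, 88.7% and 54.1% in Taf6l-KO. Ratios of peak number at −log10 q of at least 5 were 0.964 (promoter) and 0.475 (elsewhere) in Taf5l-KO and 1.44 and 0.609 in Taf6l-KO. With equal list length, chosen after seeing the data, they were 1.06 (reversed), 1.99 and 0.835 in Taf5l-KO and 1.17 (promoter) and 0.653 (elsewhere) in Taf6l-KO. Merging gave elsewhere ratios of 0.405 in Taf5l-KO and 0.663 in Taf6l-KO. Wild-type lists for the place gave 1.18 for Oct4 in Taf5l-KO and 0.660 elsewhere in Taf6l-KO. Log2 width ratios at −log10 q of at least 5 were 0.29, 0.28 and −0.018 in Taf5l-KO, the last reversed, and 0.049 (promoter) and −0.23 (Oct4) in Taf6l-KO. The Oct4 values rest on 28 pairs in Taf5l-KO and 29 in Taf6l-KO, and the cause was not tested. Shares of knockout peaks outside the wild-type list, with settings chosen after seeing the data, were 41.7%, 59.4% and 61.5% in Taf5l-KO and 39.2%, 59.6% and 59.1% in Taf6l-KO at −log10 q of at least 5. With equal list length they were 25.5%, 51.0% and 64.1% in Taf5l-KO and 25.1% at promoters in Taf6l-KO. No paired analysis was possible because there is 1 library per genotype and the labels carry no replicate numbers, and for the same reason no replicate could be left out. Depth limits these results: unique tags in Taf5l-KO and Taf6l-KO were 3.07 and 1.40 times the wild type, and a peak missing from a list was not called there, which does not show that polymerase was absent.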

Other observations

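A set of strong, narrow RNAP peaks stood apart from promoters and Oct4 sites. Of the wild-type elsewhere peaks, 31 had a fold enrichment of at least 10, with widths from 191 to 3039 bp and a median of 313 bp, against 831 bp for the 617 promoter peaks of that strength. Peaks of both knockouts overlapped 25 of the 31, and 15 were in all 9 polymerase lists. An H3K4me3 peak was listed at 4 of them in any genotype and an Oct4 peak at 2. The 4 Oct4 peaks of that strength were all in all 9 polymerase lists, and 3 of them had H3K4me3 in at least 1 genotype. Without an mm9 annotation it could not be checked whether the strong, narrow peaks are repeats or mapping artefacts.

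Peak numbers varied along the genome within each knockout. By chromosome, the ratio of all RNAP peaks to wild type ran between 0.600 on chromosome 14 and 0.826 on chromosome 19 in Taf5l-KO, and between 0.823 on chromosome 13 and 1.04 on chromosome 11 in Taf6l-KO. The kept share of promoter peaks ran between 68.9% on chromosome 14 and 82.4% on chromosome 19 in Taf5l-KO, and between 85.5% on chromosome 4 and 90.6% on chromosome 16 in Taf6l-KO.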
